A study of Mus musculus with 6 samples.

Results

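The activation-induced genes described here were 10 of the 24223 gene symbols with counts. They were 3 Egr genes (*Egr1*, *Egr2*, *Egr3*), 3 Nr4a genes (*Nr4a1*, *Nr4a2*, *Nr4a3*) and 4 Dusp genes (*Dusp1*, *Dusp2*, *Dusp5*, *Dusp6*). Their rows were found by symbol, the set itself having been proposed with earlier results of these data known, and all 10 passed the filter on low counts that left 13607 genes to be tested. RNA-Seq was performed on 6 mouse libraries, with 2 replicates each of Naive, Th17 and Th1 cells. Naive cells were CD4+ T cells from lymph nodes and spleens of C57BL/6 mice of 1-2 months of age, enriched with a kit for CD4+CD62L+ cells and not cultured. The lymph nodes and spleens were pooled. Th17 and Th1 cells were grown from such Naive cells and collected on the fifth day. They were stimulated with bound anti-CD3 and soluble anti-CD28, or with beads against CD3 and CD28. Th1 cultures also received anti-IL-4, IL-12 and IL-2. Th17 cultures received anti-IL-4, anti-IFN-γ, TGF-β, IL-6, IL-1β and IL-23. Which of the 2 forms of CD3 and CD28 stimulus each library had is not given in the sources used here, and a new stimulus before RNA extraction is described only for cytokine staining.

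Egr, Nr4a and Dusp genes are immediate early or early response genes. In T cells they are switched on within a short time of T cell receptor engagement, through the Ras and MAP kinase cascade and through calcium and NFAT, and their mRNAs are short-lived. The Egr proteins are zinc finger transcription factors, and the Nr4a proteins are orphan nuclear receptors whose activity follows their amount. The Dusp proteins of this set are phosphatases that remove phosphate from MAP kinases and thereby limit the cascade that induced them.

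The question addressed was how the level of these genes differed between Naive cells and cells of the T helper cultures. Expression is given as CPM, the counts of a gene scaled to the raw total of its library. Differences are log2 fold changes between groups from edgeR's quasi-likelihood test on TMM-scaled counts, with the standard error (SE). DEGs had to differ by more than 1 on the log2 scale, in either direction, with an adjusted p-value (Benjamini-Hochberg) under 0.01. Scaling by library totals alone moved the median log2 fold change of all tested genes to -0.26 for Th1 compared with Naive and to -0.24 for Th1 compared with Th17, against -0.02 and -0.03 after TMM scaling. CPM on raw totals and fitted fold changes therefore differ slightly for Th1. An exact permutation test of 2 libraries against 2 cannot give a p-value under 0.333, so the p-values come from the model across all genes. The labels do not say whether replicates came from separate animals or cultures, and the p-values measure only the spread between these samples.

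Depth ranged from 17742158 to 69080017 counts, and in each cell type replicate 1 was the deeper library. Counts of the members ranged from 5, for *Nr4a2* in Th1 replicate 2, to 14277, for *Dusp2* in Naive replicate 1. Reads are not independent molecules, so these counts do not by themselves give the error of a level. All 8 T cell markers (*Cd3d*, *Cd3e*, *Cd3g*, *Cd4*, *Cd247*, *Lck*, *Cd28*, *Cd5*) stood above 10 CPM in every library, with a summed level of 3172 to 4287 CPM. *Il17a* was at 573 and 688 CPM in Th17 and under 1 CPM in the other libraries, and *Tbx21*, the Th1 regulator, was at 129 and 137 CPM in Th1 and under 25 CPM in the others. *Cd44*, which is low on naive T cells, was at 93.9 and 79.9 CPM in Naive and between 73.6 and 101 CPM in the T helper libraries.

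Markers of other cells were present. The 15 myeloid markers in the files summed to 439 and 267 CPM in Naive, 3252 and 3492 CPM in Th17, and 46.4 and 58.3 CPM in Th1. *S100a8* and *S100a9* made up most of the Th17 sum, and *Mpo* most of the Naive sum. *S100a9* and *Ltf* had no count in Naive replicate 2, and *Csf3r* had none in Th1 replicate 2. The 8 mast cell and basophil markers summed to 186 and 60.5 CPM in Naive, 254 and 451 CPM in Th17, and 80.2 and 60.4 CPM in Th1, with none at 0. The 10 erythroid markers summed to 935 and 154 CPM in Naive and to at most 2.43 CPM elsewhere. At least 4 of these 10 were at 0 in each library. B cell markers summed to at most 25.0 CPM (Th17 replicate 1), CD8 markers to at most 12.3 CPM (Naive replicate 2) and NK markers to 40.2 and 38.3 CPM in Naive and at most 12.3 CPM elsewhere. Myeloid and mast cells also use the genes described here, and the part of these cells in the values below was not tested. In bulk samples, fewer expressing cells and less RNA per cell cannot be told apart.

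In Th17 compared with Naive, the members were lower throughout. *Egr1*, *Egr2*, *Dusp1* and *Dusp2* fell, by 9.71-, 4.59-, 5.54- and 6.11-fold respectively. These were 4 of the 10 members, where 1.43% of all tested genes were called lower in Th17. No member was called higher, against 4.01% of all tested genes, and none had a higher estimate at an unadjusted p-value under 0.05 or was called higher by DESeq2. The fitted fold changes of all 10 members were below 0 with a median of -2.54, while the median of all tested genes was -0.02. In all 10 genes both Th17 libraries stood below both Naive libraries, although groups did not overlap for 65.2% of all tested genes in either direction. By edgeR 10 members were lower at an unadjusted p-value under 0.05, and DESeq2 called 8 lower. Each library was also left out in turn. Fewer members were called lower without 1 of the Naive or Th17 libraries, and more without a Th1 library. A Th1 library enters this comparison only through the filter, the scaling, the estimate of the spread and the adjustment of p-values. All 10 differences kept their direction in each of these fits.

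In Th1 compared with Naive, the members divided. *Egr2*, *Egr3*, *Nr4a3* and *Dusp2* fell, by 4.88-, 11.1-, 15.2- and 4.92-fold, where 2.81% of all tested genes were called lower in Th1. None was called higher by edgeR, against 4.64% of all tested genes. *Egr1* and *Dusp5* had higher estimates at an unadjusted p-value under 0.05, and DESeq2 called 1 member, *Egr1*, higher and 5 members lower. The median fold change of the members was -1.88 on the log2 scale, and that of all tested genes was -0.02. The groups did not overlap for 8 members, against 59.5% of all tested genes. The members called lower numbered 3, 1, 1 and 2 without Naive replicate 1, Naive replicate 2, Th1 replicate 1 and Th1 replicate 2, and 3 without Th17 replicate 1. Without Th1 replicate 1, 1 member was called higher. The Naive libraries entered both comparisons.

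Between the T helper cells, *Egr1*, *Dusp1*, *Dusp5* and *Dusp6* were higher in Th1 than in Th17. The differences were 35.9-, 6.15-, 9.41- and 3.67-fold, and these were 4 of 10 members, where 2.70% of all tested genes were called higher in Th1. No member was called lower in Th1, against 2.83% of all tested genes, and none was lower at an unadjusted p-value under 0.05 or by DESeq2. The members' median log2 fold change was 0.80, against -0.03 for all tested genes. The groups did not overlap for 5 members, against 65.5% of all tested genes. Without Th17 replicate 1, Th17 replicate 2 and Th1 replicate 2, the members called higher numbered 2, 1 and 2. *Egr1* was called higher in Th1 in all 17 alternative fits, with log2 fold changes between 4.17 and 6.03.

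**Figure D1:**
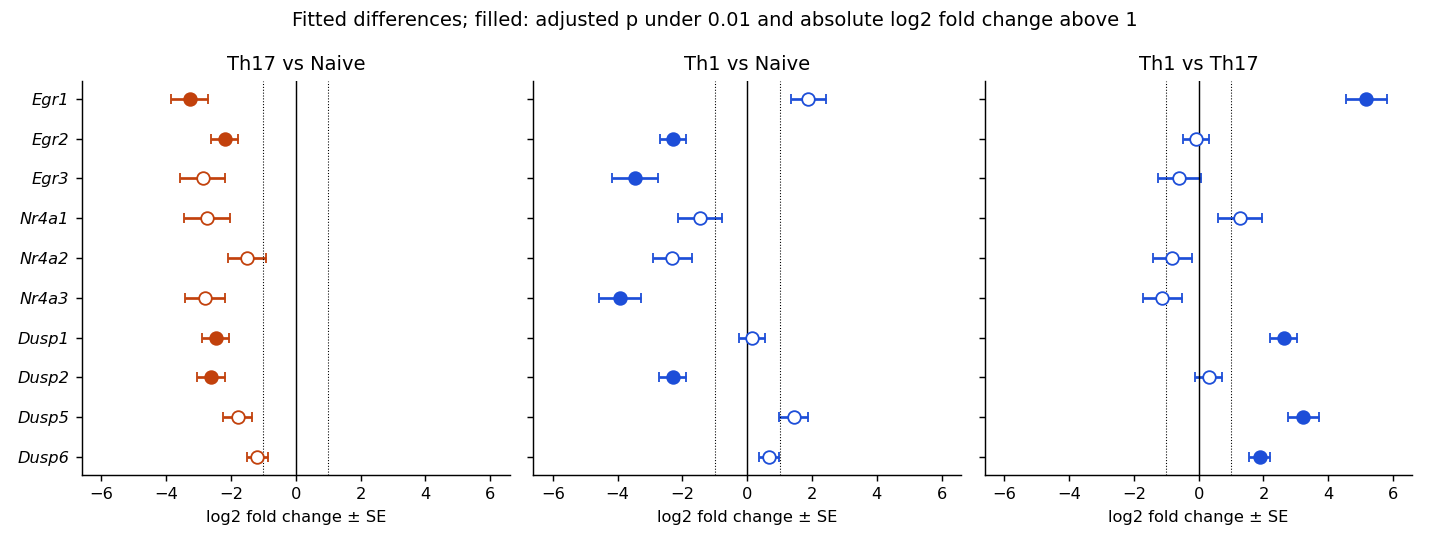
Fitted log2 fold change of each member (horizontal axis, ± SE) in Th17 compared with Naive, Th1 compared with Naive and Th1 compared with Th17; filled points were called DEGs, and dotted lines mark a log2 fold change of 1 in either direction. The left panel holds only negative values, whereas in the right panel *Egr1*, *Dusp1*, *Dusp5* and *Dusp6* stand to the right, led by *Egr1* at 5.17.

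*Egr1* encodes a zinc finger factor that responds to ERK and serum response factor. It was at 80.7 and 116 CPM in the Naive libraries, 14.6 and 5.13 CPM in Th17, and 158 and 439 CPM in Th1. Both Th1 libraries were the highest and both Th17 libraries the lowest, with no overlap between any groups. The log2 fold change was -3.28 (SE 0.58, adjusted p = 0.0055) in Th17 compared with Naive, and 5.17 (SE 0.63, adjusted p = 9e-04) in Th1 compared with Th17. In Th1 compared with Naive it was 1.89 (SE 0.54), and the adjusted p-value of 0.041 missed the threshold.

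*Egr2* and *Egr3*, factors known in T cells for restraining the response to antigen and for anergy, did not share this pattern. *Egr2* was at 17.4 and 24.3 CPM in Naive, 3.92 and 4.90 CPM in Th17, and 2.92 and 4.25 CPM in Th1. Naive stood apart, and the Th17 and Th1 libraries overlapped. Its log2 fold change was -2.20 (SE 0.41, adjusted p = 0.0069) in Th17 and -2.29 (SE 0.41, adjusted p = 0.0048) in Th1, both compared with Naive. Th1 and Th17 differed by -0.09, with a 95% confidence interval of -0.98 to 0.80.

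*Egr3* was at 26.0 and 49.6 CPM in Naive, 7.90 and 2.14 CPM in Th17, and 4.55 and 1.04 CPM in Th1. Again only Naive stood apart. The replicates of the T helper cells differed 3.69-fold in Th17 and 4.39-fold in Th1, and in each case replicate 2 was the lower. The gene fell in Th1 compared with Naive, with a log2 fold change of -3.47 (SE 0.72, adjusted p = 0.0095). In Th17 the estimate was -2.87 (SE 0.69) and did not pass, with an adjusted p-value of 0.023. The 95% confidence interval of the difference between Th1 and Th17 was -2.09 to 0.88.

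**Figure D2:**
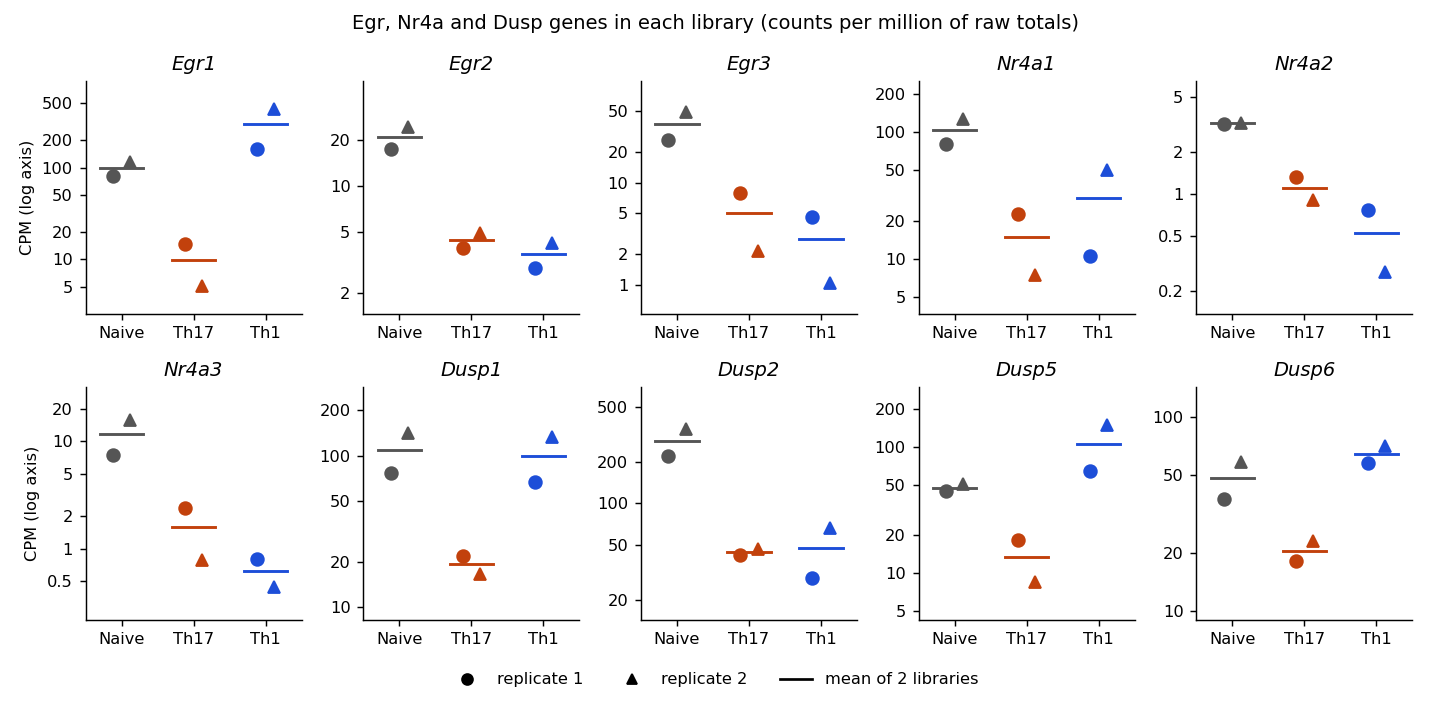
CPM of each member in the 6 libraries, on a log axis with its own range in each panel; circles are replicate 1, triangles replicate 2, and the line is the mean of the 2 libraries. *Egr1* and *Dusp5* are highest in Th1, *Egr2*, *Egr3*, the Nr4a genes and *Dusp2* are highest in Naive, and the *Nr4a1* points of Th1, 10.5 and 50.4 CPM, lie on both sides of the higher Th17 point.

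*Nr4a1*, the nuclear receptor widely used as a reporter of T cell receptor signalling, was at 80.2 and 125 CPM in Naive, 22.6 and 7.44 CPM in Th17, and 10.5 and 50.4 CPM in Th1. All T helper libraries were below Naive, and those of Th1 lay 4.80-fold apart, around the higher Th17 library. The estimates were -2.75 (SE 0.71, adjusted p = 0.029) in Th17 and -1.47 (SE 0.68, adjusted p = 0.18) in Th1 compared with Naive, and neither passed. For Th1 compared with Th17 the estimate was 1.28 (SE 0.68, adjusted p = 0.21), and without Th1 replicate 2 it was -0.34.

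*Nr4a3*, a receptor whose induction depends on NFAT, was at 7.40 and 16.0 CPM in Naive, 2.38 and 0.789 CPM in Th17, and 0.796 and 0.436 CPM in Th1. Naive again stood above the other libraries, and the lower Th17 library lay between those of Th1. It fell in Th1 with a log2 fold change of -3.93 (SE 0.65, adjusted p = 0.0032), the lowest estimate of any member in any comparison. In Th17 it was at -2.81 (SE 0.61), and the adjusted p-value of 0.015 missed the threshold. These values rest on 480 and 297 counts in the Naive libraries, but on 143 and 14 in Th17 and 55 and 8 in Th1.

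*Nr4a2*, the third receptor, had few counts. It was at 3.21 and 3.28 CPM in Naive, 1.32 and 0.902 CPM in Th17, and 0.767 and 0.273 CPM in Th1, and no groups overlapped. The order was Naive, Th17, Th1, but none of its differences passed the test. The log2 fold changes were -1.50 (SE 0.58, adjusted p = 0.10) in Th17 and -2.32 (SE 0.60, adjusted p = 0.026) in Th1 compared with Naive. In Th1 replicate 2 the level rests on 5 counts.

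*Dusp2*, a nuclear phosphatase found mainly in leukocytes, was at 220 and 345 CPM in Naive, 42.7 and 47.0 CPM in Th17, and 28.9 and 66.1 CPM in Th1. It was low in both T helper cells, whose libraries overlapped. The log2 fold change was -2.61 (SE 0.43, adjusted p = 0.0037) in Th17 and -2.30 (SE 0.42, adjusted p = 0.0054) in Th1. Between Th1 and Th17 the 95% confidence interval was -0.59 to 1.22.

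*Dusp1*, a nuclear phosphatase that acts on several MAP kinases and is itself an immediate early gene, was at 76.4 and 142 CPM in Naive, 21.9 and 16.5 CPM in Th17, and 67.3 and 133 CPM in Th1. Both Th17 libraries were lowest, and the Naive and Th1 libraries overlapped. *Dusp1* fell in Th17 with a log2 fold change of -2.47 (SE 0.42, adjusted p = 0.0043) and was higher in Th1 than in Th17 by 2.62 (SE 0.42, adjusted p = 0.0035). For Th1 compared with Naive the estimate was 0.15 with a 95% confidence interval of -0.73 to 1.03, and it was -0.13 with scaling by library totals alone. Leaving out Naive replicate 1 or Th1 replicate 2 also turned this estimate below 0, to -0.22 and -0.49.

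*Dusp5*, a nuclear phosphatase of ERK, was at 44.4 and 50.8 CPM in Naive, 18.3 and 8.51 CPM in Th17, and 64.1 and 149 CPM in Th1. No groups overlapped, with Th1 highest and Th17 lowest. The difference between Th1 and Th17 was 3.23 on the log2 scale (SE 0.48, adjusted p = 0.0024). Neither difference from Naive passed, at -1.80 (SE 0.45, adjusted p = 0.027) for Th17 and 1.44 (SE 0.45, adjusted p = 0.054) for Th1.

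*Dusp6*, the cytoplasmic phosphatase of ERK, was at 38.0 and 58.9 CPM in Naive, 18.1 and 22.9 CPM in Th17, and 58.3 and 71.2 CPM in Th1. Th17 was the lowest group, and the lower Th1 library lay just under the higher Naive library. Replicates were close, at most 1.55-fold apart. *Dusp6* was higher in Th1 than in Th17 by 1.88 (SE 0.32, adjusted p = 0.0051). It did not pass in Th17 (-1.19, SE 0.32, adjusted p = 0.033) or in Th1 (0.68, SE 0.31, adjusted p = 0.18) compared with Naive.

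In the order of these values, 2 patterns could be described, and they were named after the values were seen. *Egr2*, *Egr3*, *Nr4a1*, *Nr4a2*, *Nr4a3* and *Dusp2* were lower than Naive in each library of both T helper cells. *Egr1*, *Dusp1*, *Dusp5* and *Dusp6* were lower than Naive only in the Th17 libraries, and in Th1 each of their libraries was within or above the range of Naive except for *Dusp1* in Th1 replicate 1, at 67.3 CPM against 76.4 CPM. The families did not follow this division, since *Egr1* was apart from *Egr2* and *Egr3*, and *Dusp2* from the other Dusp genes. Across the 6 libraries, which share 3 cell types, log2 CPM of *Egr1* had a Pearson's r of 0.99 with *Dusp5*, 0.94 with *Dusp1* and 0.93 with *Dusp6*, but 0.17 with *Egr2* and 0.01 with *Egr3*. *Egr3* had an r of 0.98 with *Nr4a3* and 0.95 with *Nr4a2*. *Nr4a1* was less clearly on one side. Within its own pattern its r was 0.88 with *Dusp2*, 0.80 with *Egr2*, 0.68 with *Nr4a3*, 0.59 with *Egr3* and 0.43 with *Nr4a2*. With the other pattern it was 0.74 for *Dusp1*, 0.57 for *Egr1*, 0.54 for *Dusp5* and 0.43 for *Dusp6*.

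**Figure D3:**
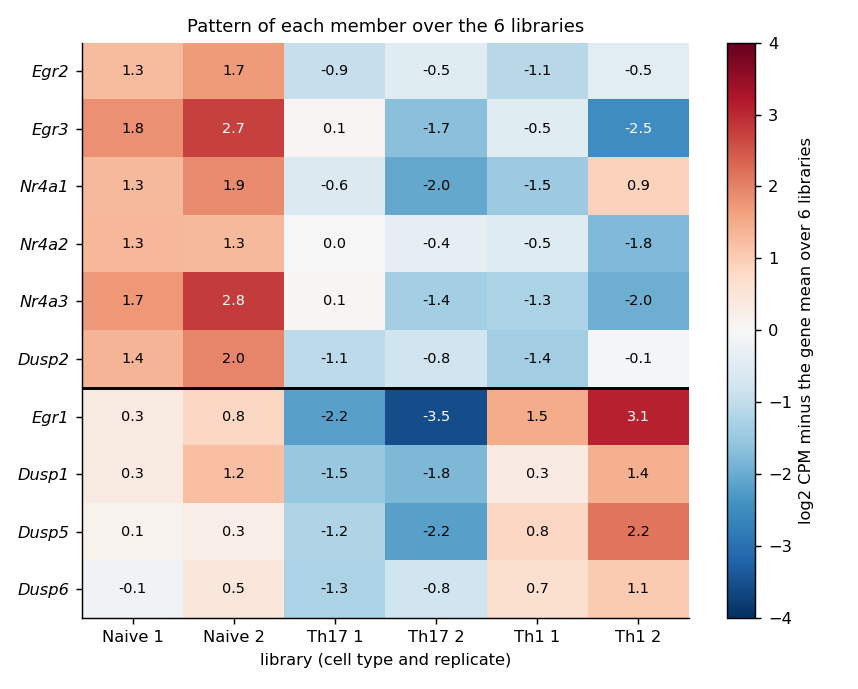
Log2 CPM of each member in each library minus that gene's mean over the 6 libraries (colour and printed value); the horizontal line separates the 6 members that were low in both T helper cells from *Egr1*, *Dusp1*, *Dusp5* and *Dusp6*. Naive is red above the line, and below it Th17 is blue in both replicates and Th1 is red. Above the line most T helper values are negative, *Nr4a1* in Th1 replicate 2 is clearly positive, and *Egr3*, *Nr4a2* and *Nr4a3* in Th17 replicate 1 lie just above 0.

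The replicates differed in depth and also in these genes. Raw CPM ratios were therefore compared within replicate 1 and within replicate 2. The direction was the same in both for 10 members in Th17 compared with Naive, for 10 in Th1 compared with Naive, and for 8 in Th1 compared with Th17. The exceptions were *Nr4a1*, with log2 ratios of -1.11 and 2.76, and *Dusp2*, with -0.56 and 0.49. In Th1 compared with Naive, *Dusp1* had raw log2 ratios of -0.18 and -0.1, whereas its fitted estimate on TMM-scaled counts was 0.15. For *Egr1* the log2 ratio of Th1 to Th17 was 3.44 among the deeper and 6.42 among the shallower libraries, so its size differed between replicates though its direction did not. *Dusp6* was steadier, at 1.69 and 1.64.

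Levels of different genes were compared only after division by transcript length in kilobases, taking the longest annotated protein-coding transcript in GENCODE vM21. Per kilobase, *Dusp2* was the most abundant member in Naive at a mean of 175 CPM, followed by *Dusp1* at 54.9, *Nr4a1* at 40.3 and *Egr1* at 21.9 CPM. In Th1, *Egr1* led at 66.6 CPM per kilobase, followed by *Dusp1* at 50.3 and *Dusp5* at 43.1 CPM. In Th17, *Dusp2* was again first at 27.7 CPM per kilobase, and *Egr1* was at 2.2. *Nr4a2* and *Nr4a3* were lowest in each cell type, from 0.108 to 2.04 CPM per kilobase.

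The related genes were read from lists of the same pathways, and the counts below refer to DEGs of edgeR. They stand beside shares of all tested genes of 4.01% higher and 1.43% lower in Th17 compared with Naive, 4.64% and 2.81% in Th1 compared with Naive, and 2.70% and 2.83% in Th1 compared with Th17. Among 38 tested members of 40 other immediate early and early response genes, 7 were higher and 3 lower in Th17 compared with Naive, with a median log2 fold change of -0.44. For Th1 and Naive, 10 were higher and 2 lower in Th1, with a median of 0.71, and in Th1 compared with Th17 5 were higher and 2 lower, with a median of 0.78. *Fos*, a subunit of AP-1, was at 66.0 and 174 CPM in Naive, 3.52 and 1.58 CPM in Th17, and 51.2 and 234 CPM in Th1. It was higher in Th1 than in Th17 by 6.02 on the log2 scale (SE 0.83, adjusted p = 0.0016). *Jun*, its partner, was at 123 and 258 CPM in Naive, 58.8 and 35.0 CPM in Th17, and 742 and 1274 CPM in Th1, a difference of 4.67 between Th1 and Th17 (SE 0.50, adjusted p = 0.00049). *Fosb* was at 16.5 and 18.9 CPM in Naive, 1.02 and 0.282 CPM in Th17, and 4.55 and 13.8 CPM in Th1, and it fell in Th17 compared with Naive (log2 fold change -4.62, SE 0.69, adjusted p = 0.0023). *Plk2*, a kinase, rose in both T helper cells, from 1.23 and 1.50 CPM in Naive to 10.4 and 10.7 CPM in Th17 and 16.7 and 33.6 CPM in Th1. The other genes called in the smaller counts were picked after their values were seen. *Zfp36l2* was the remaining gene called lower in Th17 beside *Fos* and *Fosb*, *Rgs2* and *Gadd45a* were those called lower in Th1 compared with Naive, *Myc*, *Zfp36l1* and *Fosb* were called higher in Th1 than in Th17 beside *Fos* and *Jun*, and *Sgk1* and *Gadd45b* were called lower. The lists were thus not uniform in direction.

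**Figure D4:**
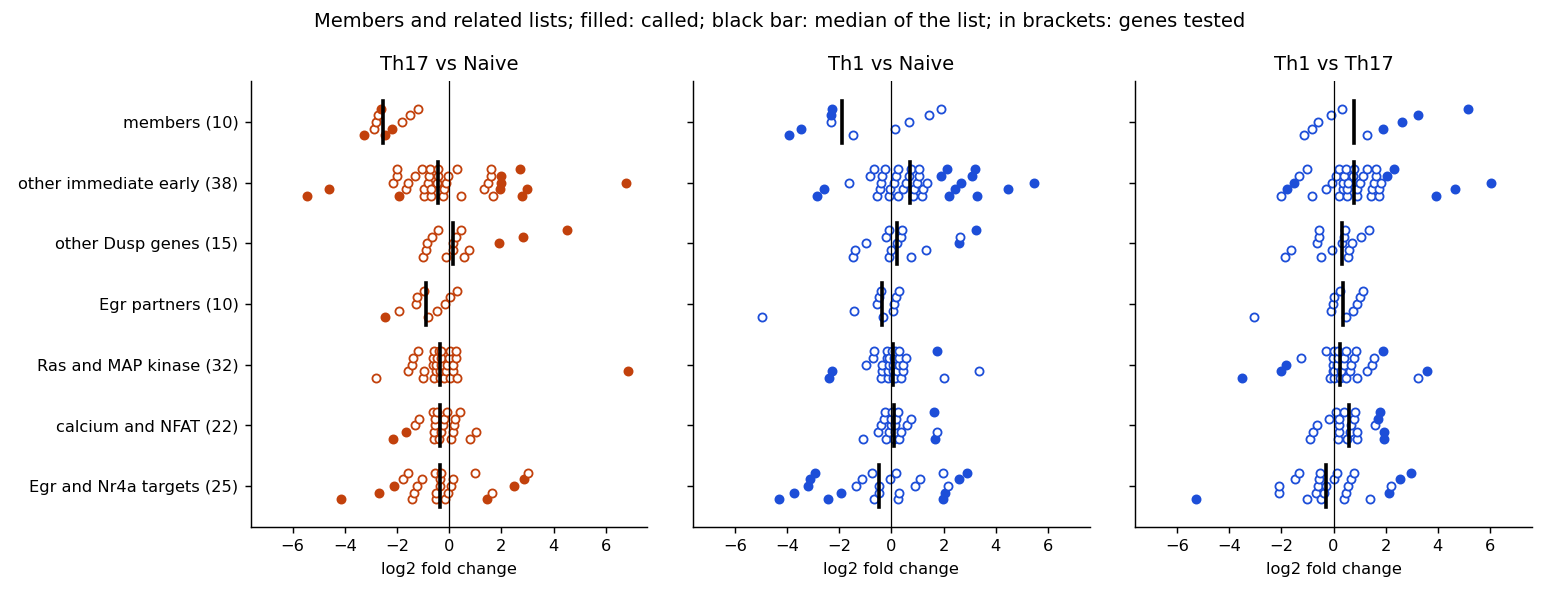
Log2 fold change (horizontal axis) of each tested gene of the members and of 6 related lists in the 3 comparisons; filled points were called DEGs, black bars are medians, and the number of genes tested is in brackets. The members' median of -2.54 in Th17 compared with Naive lies left of that of each other list, all of which have medians between -0.89 and 0.16.

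Of the remaining Dusp genes, 15 of 16 were tested. *Dusp14* and *Dusp22*, atypical phosphatases, were called higher in both T helper cells and *Dusp3* in Th17, and none was called lower compared with Naive, where 2 in Th17 and 3 in Th1 were lower at an unadjusted p-value under 0.05 and DESeq2 called 0 and 1 lower. *Dusp22* was at 3.38 and 4.41 CPM in Naive, 13.5 and 14.5 CPM in Th17, and 19.1 and 20.2 CPM in Th1. *Dusp14* was at 0.494 and 0.376 CPM in Naive and between 2.87 and 4.15 CPM in the T helper libraries. *Dusp3*, named after its values were seen, had 3 counts in Naive replicate 2 and was at 9.82 and 9.86 CPM in Th17. Between Th1 and Th17 edgeR called none of these genes, with 1 higher and 2 lower at an unadjusted p-value under 0.05 and the same numbers called by DESeq2. Their median log2 fold changes were 0.16, 0.22 and 0.33 in the 3 comparisons in the order above.

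The 10 partners of the Egr genes included the remaining member *Egr4*, the NAB corepressors and serum response factor with its cofactors. *Nab2*, a corepressor that binds Egr proteins and is induced by them, was the only gene called, and it fell in Th17 from 94.4 and 139 CPM in Naive to 26.0 and 15.6 CPM, a log2 fold change of -2.45 (SE 0.32, adjusted p = 0.0011). In Th1 it was at 34.3 and 37.4 CPM, at -1.44 compared with Naive, which did not pass (adjusted p = 0.012). None of the 10 was called higher in Th17, and none either way in the other comparisons, by edgeR. At an unadjusted p-value under 0.05, 0 were higher and 5 lower in Th17 compared with Naive. In Th1, 0 were higher and 3 lower compared with Naive, and 3 higher and 1 lower compared with Th17. DESeq2 called 2 lower in Th17, 1 lower in Th1 compared with Naive, and none between Th1 and Th17. The median log2 fold changes were -0.89, -0.36 and 0.37.

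Of 32 genes of the Ras and MAP kinase cascade and its other inhibitors, 1 was called higher in Th17 compared with Naive, 1 higher and 2 lower in Th1 compared with Naive, and 2 higher and 3 lower in Th1 compared with Th17. *Spry1*, a feedback inhibitor of Ras signalling, was at 11.2 and 17.2 CPM in Naive, 5.20 and 4.11 CPM in Th17, and 25.4 and 69.2 CPM in Th1. It was higher in Th1 than in Th17 by 3.58 (SE 0.51, adjusted p = 0.0021), as was *Map2k5*, a kinase, by 1.88 (SE 0.28, adjusted p = 0.0024). *Map2k6* and *Mapk11*, a kinase of the stress branch and its substrate, fell in Th1 compared with Naive (log2 fold changes -2.41 and -2.28) and were called lower in Th1 than in Th17 as well, together with *Mapk13*. *Mapk13*, named after its values were seen, was the 1 gene called in Th17 compared with Naive, at 6.69 and 6.03 CPM against 2 counts in each Naive library. *Map2k5* was the 1 gene called higher in Th1 compared with Naive. No gene of this list was called lower in Th17 by edgeR, with 8 lower at an unadjusted p-value under 0.05 and 3 by DESeq2. The median log2 fold changes were -0.36, 0.06 and 0.26.

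Of 22 genes of the calcium and NFAT pathway, *Itpr2*, a calcium channel, and *Nfatc1*, an NFAT factor, fell in Th17. *Itpr2* was at 109 and 212 CPM in Naive, 43.5 and 26.4 CPM in Th17, and 104 and 123 CPM in Th1. *Nfatc1* was at 145 and 244 CPM in Naive, 74.6 and 45.3 CPM in Th17, and 167 and 182 CPM in Th1. Both were called higher in Th1 than in Th17, as were *Ppp3ca*, a calcineurin catalytic subunit, by 1.92 (SE 0.33, adjusted p = 0.0046), and *Stim2*, a calcium sensor, by 1.72 (SE 0.28, adjusted p = 0.0040). *Stim2* and *Ppp3cc*, the latter named after its values were seen, were called higher in Th1 than in Naive. No gene was called higher in Th17 or lower in Th1 in these comparisons by edgeR. At an unadjusted p-value under 0.05, 2 were higher in Th17, 1 lower in Th1 compared with Naive and 2 lower in Th1 compared with Th17, and DESeq2 called 0 in each of these. The medians were -0.36, 0.11 and 0.59.

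Of 25 genes described as targets of Egr or Nr4a factors or as genes of T cells that carry them, 3 were higher and 3 lower in Th17, and 4 were higher and 7 lower in Th1, compared with Naive. Between Th1 and Th17, 3 were higher and 1 lower in Th1. *Tox*, a nuclear factor linked to Nr4a genes in exhausted T cells, fell from 43.7 and 70.7 CPM in Naive to 3.17 and 3.16 CPM in Th17 and 2.88 and 4.31 CPM in Th1. *Tox2* was at 6.39 and 9.62 CPM in Naive, 21.5 and 9.69 CPM in Th17, and 0.347 and 0.327 CPM in Th1, and was lower in Th1 than in Th17 (log2 fold change -5.29, SE 0.55, adjusted p = 0.00043). *Ikzf2*, a regulatory T cell factor, was at 64.4 and 107 CPM in Naive, 15.8 and 9.86 CPM in Th17, and 10.2 and 5.61 CPM in Th1. *Nrgn* fell in Th1 compared with Naive, with a log2 fold change of -3.13. *Foxp3*, the defining factor of regulatory T cells and named after its values were seen, was at 41.2 and 75.9 CPM in Naive, 20.9 and 12.7 CPM in Th17, and 6.50 and 11.4 CPM in Th1. *Ikzf2* and *Foxp3* were lower in each T helper library than in either Naive library. Other genes that regulatory T cells carry, also named after their values were seen, were divided. *Nrp1*, at 30.4 and 42 CPM in Naive and between 7.45 and 19.1 CPM in the T helper libraries, shared this order. So did *Izumo1r*, at 256 and 289 CPM in Naive and between 37.7 and 110 CPM in the others. *Ctla4*, at 30.2 and 42.1 CPM in Naive and between 191 and 291 CPM in the T helper libraries, did not. Nor did *Ikzf4*, at 8.55 and 19.9 CPM in Naive and between 10.1 and 18.4 CPM in the others. The part of regulatory T cells in the values of *Egr2*, *Egr3* and the Nr4a genes was not tested. *Ctla4*, *Socs3* and *Tnfrsf9* were called higher in Th17, and *Nrp1* was called lower beside *Tox* and *Ikzf2*. *Ctla4*, *Socs3*, *Lag3* and *Bcl2l11* were called higher in Th1 than in Naive, and *Lag3*, *Bcl2l11* and *Cblb* higher than in Th17. These genes were also picked after their values were seen. The median log2 fold changes were -0.35, -0.47 and -0.28.

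Markers of activation of another kind were high in the T helper cells. Of 15 such genes, 4 were higher and 0 lower by edgeR in Th17, and 4 and 0 in Th1, compared with Naive. At an unadjusted p-value under 0.05, 2 were lower in Th17 and 1 in Th1, and DESeq2 called 1 and 0 lower. *Il2ra*, a chain of the interleukin-2 receptor, was at 44.5 and 77.9 CPM in Naive, 537 and 301 CPM in Th17, and 968 and 716 CPM in Th1. *Icos*, a costimulatory receptor, was at 58.9 and 76.6 CPM in Naive, 285 and 213 CPM in Th17, and 422 and 284 CPM in Th1. *Tnfrsf4* and *Tnfrsf18*, receptors of the TNF family, were higher in Th1 than in Naive by 2.45 (SE 0.28, adjusted p = 0.00046) and 2.14 (SE 0.27, adjusted p = 0.00077). Of 11 tested heat shock genes, *Hsph1* alone was called, lower in Th1 than in Naive, and none was called in Th17 compared with Naive or between Th1 and Th17. There 3 were lower in Th17 and 1 lower in Th1 at an unadjusted p-value under 0.05, and DESeq2 called 1 and 0 lower. In Th1 compared with Naive 3 heat shock genes were lower at an unadjusted p-value under 0.05, and DESeq2 called 2 lower. The median log2 fold changes of the heat shock genes were -0.33, -0.53 and 0.22.

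For each member, the gene outside the set with the nearest pattern was found by the root mean square distance of centred log2 CPM over the 6 libraries. *Dusp1* was nearest to *Igsf23* (distance 0.13), which was at 43.0 and 67.9 CPM in Naive, 12.8 and 9.98 CPM in Th17, and 35.8 and 83.9 CPM in Th1. *Dusp6* was nearest to *Ifi203* (0.21), at 154 and 254 CPM in Naive, 82.2 and 81.2 CPM in Th17, and 335 and 336 CPM in Th1. *Nr4a3* was nearest to *Plxna3* (0.30), at 7.73 and 12.3 CPM in Naive and between 0.273 and 2.43 CPM in the T helper libraries. *Egr1* was nearest to *Tmprss13* (0.30), *Egr2* and *Dusp2* to *Srsf12* (0.14 and 0.15), *Egr3* to *Zfyve28* (0.13) and *Dusp5* to *Clic5* (0.20). These genes had few counts in some libraries. In Th17 replicate 2 *Tmprss13* was at 0.0564 and *Clic5* at 0.113 CPM, and in Th1 replicate 2 *Zfyve28* was at 0.0545 CPM. *Srsf12* was between 0.275 and 0.491 CPM in the T helper libraries. *Nr4a1* and *Nr4a2* were nearest to *Ccdc148* (0.31) and *Gm3696* (0.15), which were under 1 CPM in every library.

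The sequences before the start sites of the members were read for motifs of the pathways above. RefSeq windows on GRCm38.p6, from 250 bases before to 50 after a start site, were held for 8 members. The CArG box, to which serum response factor binds, was in 1.63% of 32851 windows and in windows of 2 of the 8 members, *Egr2* and *Dusp5*. TGACG, the core of the site of CREB proteins, was in 20.8% of windows and in those of 7 members, and the full palindrome TGACGTCA, which holds it on both strands, in 1.79% and in that of 1, *Dusp1*. GGAAA, the NFAT core, was in 61.3% and in 5 members. AAAGGTCA, the site of Nr4a monomers, was in 1.51% and GCGTGGGCG, the Egr site, in 0.612%, and neither was in a window of a member. Both strands were searched, and a match describes letters and not binding. The percentages are shares of windows, whereas members were counted by gene with a match in any window. The 8 members had 12 windows, several of them overlapping ones of *Egr2*. Of these 12, 5 held a CArG box, 9 held TGACG, 1 held TGACGTCA and 8 held GGAAA.

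Stretches of 200 bases before a RefSeq start site, free of exons of the gene itself, are shown. They are from the members with CArG boxes, *Egr2*, which fell in Th1 compared with Naive, and *Dusp5*, which did not pass the test there. *Nr4a1* and *Dusp1*, which had TGACG matches and no CArG box, are shown as well. Only the *Dusp5* stretch precedes the gene annotated in GENCODE vM21, and those of *Egr2*, *Nr4a1* and *Dusp1* lie within the gene. *Egr2* had windows at several start sites. The 200 bases before its first annotated exon, chr10:67535275-67535474, held 0 CArG boxes and 0 TGACG matches. Capitals mark CArG boxes and TGACG or its reverse complement CGTCA. The *Egr2* stretch is chr10:67537669-67537868 on the + strand and has 1 CArG box, from -72 to -63 relative to the start site at 67537869. That of *Dusp5* is chr19:53528909-53529108 on the + strand and has 2 CArG boxes side by side, from -82 to -73 and from -72 to -63 relative to the start site at 53529145. The *Nr4a1* stretch is chr15:101266646-101266845 on the + strand, and the *Dusp1* stretch is chr17:26508520-26508719 on the - strand, each written 5′ to 3′ along its gene.
Egr2: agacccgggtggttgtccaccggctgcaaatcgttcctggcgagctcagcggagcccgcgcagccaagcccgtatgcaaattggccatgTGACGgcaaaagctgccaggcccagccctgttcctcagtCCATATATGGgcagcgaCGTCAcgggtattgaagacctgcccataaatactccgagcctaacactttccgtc
Dusp5: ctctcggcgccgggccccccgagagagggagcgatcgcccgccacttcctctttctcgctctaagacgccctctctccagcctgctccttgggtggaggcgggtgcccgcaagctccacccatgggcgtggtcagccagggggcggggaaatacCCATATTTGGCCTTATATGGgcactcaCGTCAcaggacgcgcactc
Nr4a1: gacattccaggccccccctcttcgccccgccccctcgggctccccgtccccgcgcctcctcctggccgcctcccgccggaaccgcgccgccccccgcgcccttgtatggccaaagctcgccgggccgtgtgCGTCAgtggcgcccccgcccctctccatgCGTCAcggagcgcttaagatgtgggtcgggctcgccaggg
Dusp1: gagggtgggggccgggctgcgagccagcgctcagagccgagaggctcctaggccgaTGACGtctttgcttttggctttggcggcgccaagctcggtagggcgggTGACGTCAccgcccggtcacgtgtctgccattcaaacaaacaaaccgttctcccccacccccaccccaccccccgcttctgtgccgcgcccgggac
In *Egr2*, TGACG matches lie on both sides of the CArG box, and in *Dusp5* 1 lies after the pair of boxes. The TGACGTCA of *Dusp1* spans -143 to -136.

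All members are protein-coding. An exon of *Dusp5* (chr19:53529109-53542431, + strand, 4 exons) shares 547 bases with an antisense gene on the opposite strand. In *Dusp1* (chr17:26505590-26562128, - strand), an annotated exon shares 11 bases with *Ergic1* on the other strand. These are the largest overlaps of single exons. The supplementary code of the study sets the reverse strand for counting, whereas its methods name default settings, and which of these made the deposited counts is not given in the sources used here. Reads of *Dusp5* and its antisense partner are therefore uncertain. The other members share no exonic base with another gene.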

How the data were processed

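RNA-Seq counts of 6 libraries were analysed, 2 each of Naive, Th17 and Th1 cells, grouped by their labels. The authors aligned reads to mm10 with HISAT2 (2.2.1) and counted them per gene with HTSeq (0.13.5), and the deposited values are raw counts for 24223 genes. The methods state that duplicates were removed, while the supplementary code holds no such step. StringTie (2.1.7) and DESeq2 (1.34.0) were also named in the submitters' processing notes and were not needed for the counts.

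The counts were filtered by filterByExpr, scaled by TMM (factors 0.862 to 1.09) and tested with edgeR 4.0.16 (quasi-likelihood F-test, cell type as the only term, all 6 libraries) in R 4.3.3 with limma 3.58.1, and p-values were Benjamini-Hochberg adjusted over 13607 genes. The SE is the absolute log2 fold change over the square root of F. Log2 CPM used a prior count of 2. DESeq2 1.42.0 was an alternative, with other scalings, filters, thresholds, thinning, a replicate block, fewer libraries and leaving out each library. The scripts were tested on simulated data.

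The members, lists and motifs were chosen with earlier results of these data known. From each list, at most 4 genes called in a comparison were named, those with the largest absolute log2 fold change, provided that each library had over 3 counts of the gene. Genes named outside this rule are identified. Samples sharing a replicate number did not deviate together in 3 pairs of cell types (r over genes -0.231 for Naive and Th17, 0.168 for Naive and Th1, 0.077 for Th17 and Th1). Transcript lengths and overlaps came from GENCODE vM21, and start-site windows from RefSeq, both on GRCm38. Sequences of *Egr1* and *Egr3* and windows on the chromosome of *Egr1* were not used here.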

Additional observations from a re-analysis of the deposited data

How the results depend on the processing

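Of the members' log2 fold changes under the alternative fits, 419 kept their direction and side of the threshold, 33 lost the call, 43 gained it and 9 reversed. A fit without 1 library leaves that group a lone sample, assumed to vary like the others. *Nr4a2* and *Nr4a3* were not tested where at least 10 counts were required in every library. The reversed estimates were not called. They were *Dusp1* in Th1 compared with Naive, at -0.13 with library size alone, -0.22 without Naive replicate 1 and -0.49 without Th1 replicate 2, (range when leaving out a library -0.49 to 0.64), and, in Th1 compared with Th17, *Egr2* at 0.16 without Th17 replicate 2 and 0.22 without Th1 replicate 1 (-0.42 to 0.22), *Egr3* at 0.54 without Th17 replicate 1 and 0.02 without Th1 replicate 2 (-2.0 to 0.54), and without Th1 replicate 2 *Nr4a1* at -0.34 (-0.34 to 2.2) and *Dusp2* at -0.47 (-0.47 to 0.82). The cause was not tested.

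Members called lower in Th17 compared with Naive (4) numbered 8 with DESeq2, 9 without a filter on low counts, 8 with only the 4 libraries compared and 9 at an adjusted p-value under 0.05, and 0 to 7 when leaving out a library. In Th1 compared with Naive the members called lower (4) numbered 1 to 4 when leaving out a library, and those called higher (0) numbered 1 with DESeq2, 2 without a filter and 1 at an adjusted p-value under 0.05, and 0 to 1 when leaving out a library. Those called higher in Th1 compared with Th17 (4) numbered 1 to 4.

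Over all genes, in Th17 compared with Naive (545 higher, 194 lower), DESeq2 called 1047 and 670, no filter 1203 and 951, at least 10 counts 268 and 101, an adjusted p-value under 0.05 1223 and 840, library size alone 123 lower, and only the 4 libraries 292 lower. In Th1 compared with Naive (631, 383) these were 1110 and 807 with DESeq2, 1287 and 972 without a filter, 220 lower with at least 10 counts, 399 higher with library size alone, and 1188 and 976 at 0.05. In Th1 compared with Th17 (367, 385) they were 925 and 872 with DESeq2, 1188 and 1044 without a filter, 167 lower with at least 10 counts, 203 higher with library size alone, and 1036 and 1076 at 0.05. Leaving out a library gave 291 to 634 higher and 28 to 253 lower in Th17 compared with Naive, 330 to 595 higher and 115 to 477 lower in Th1 compared with Naive, 107 to 476 higher and 159 to 540 lower in Th1 compared with Th17.

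With the replicate number as a block, edgeR called 6 members and 329 genes lower in Th17 compared with Naive, and DESeq2 with the block called 9 members lower there and 1 higher in Th1 compared with Naive. Over all genes DESeq2 with the block called 940 higher and 575 lower, 1075 and 724, and 850 and 780 in the 3 comparisons. The samples share only a number. Crossed pairing of Naive and Th17, chosen after seeing the data, gave 7 members and 386 genes lower. The mean of *Nr4a2* in Naive (3.24 CPM) was 3.04 CPM on TMM-scaled and 3.02 CPM on RLE-scaled totals. Depth limits *Nr4a2* and *Nr4a3* most.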
